A study of Gallus gallus with 6 samples.

Results

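The germinal disc region of the largest follicle before ovulation (F1 GDR) was compared with granulosa cells dissected around it (F1 GCs), on 2 arrays of each, which are 4 of the 6 arrays of the series. The members of the comparison are the 38439 of 38535 probe sets that are not Affymetrix controls, and the measurement is the gcrma log2 value of each probe set. Tissue came from untreated laying hens aged 60 weeks, kept at 20 degrees with 14 h of light and 10 h of dark per the labels, and each array holds a pool of tissue from 25 hens. F1 GDR is the germinal disc, the cytoplasm around the oocyte nucleus, together with the granulosa cells that lie over it and cannot be removed completely. The number of those cells was not counted. F1 GCs are granulosa cells that surround this region in F1 follicles, and the remaining 2 arrays hold discs of oocytes taken just after ovulation (Ov GDR), which have no granulosa layer. The arrays of a group differ in name by the suffix A, and paired values below are given with the unsuffixed array first.

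In birds the oocyte is a yolk-filled cell in which the nucleus and the organelles lie in a small white disc. Messenger RNA stored in this disc serves the completion of meiosis, fertilization and the first divisions of the embryo, at a time when the embryo does not yet transcribe its own genome. Granulosa cells surround the oocyte, make the proteins of the egg coat, respond to follicle stimulating and luteinizing hormone, and in the largest follicle produce progesterone. Work in the hen has described granulosa cells near the disc as more proliferative and less differentiated than those far from it, and factors from the disc, among them epidermal growth factor, as acting on them. A pool of disc and granulosa cells differs from a pool of granulosa cells in its mixture of cells, and in bulk RNA fewer cells of a type and less RNA per cell cannot be told apart.

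The arrays of a group were alike, with a Pearson correlation over probe sets of 0.978 between the F1 GDR arrays and 0.990 between the F1 GCs arrays, against 0.880 to 0.924 between arrays of the different groups. Background was taken per array as the maximum over 23 controls with no target in the hen and stood at 2.82 and 2.88 in F1 GDR against 2.76 and 2.78 in F1 GCs. Of all probe sets, 48.9% and 46.9% exceeded it in F1 GDR and 51.4% and 51.3% in F1 GCs. Controls that are added at hybridization stood at a mean of 10.53 and 10.50 in F1 GDR and at 9.75 and 10.11 in F1 GCs, so that setting them equal would lower every log2 difference given here by 0.58. The difference between 3′ and 5′ probe sets of elongation factor 1 alpha, which grows with RNA degradation, was 1.85 and 3.10 in F1 GDR and 1.31 and 1.09 in F1 GCs, whereas for actin (2.65 and 3.57 against 3.23 and 2.46) and GAPDH (0.79 and 1.77 against 0.91 and 0.54) the groups overlapped. On the Ov GDR arrays these values were 4.51 and 1.48 for elongation factor 1 alpha, 5.02 and 1.53 for actin and 2.82 and 0.11 for GAPDH. Background on the Ov GDR arrays was 3.27 and 3.01, and the hybridization controls stood at 11.34 and 11.27. The part of the differences in 3′ and 5′ signal in the results was not tested.

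Markers of both expected cell types were present. Of 12 granulosa markers 11 were above background on each of the 4 arrays, and their summed linear level was 27200 and 23200 in F1 GDR and 37000 and 37700 in F1 GCs. On the Ov GDR arrays, which have no granulosa layer, 8 of the 12 were above background on each, with sums of 4930 and 4110. The part of the disc in the levels of these markers was not tested. Of 12 oocyte markers measured, 8 were above background on each F1 GDR array, with a summed level of 796 and 903, against 6 and 2 on the F1 GCs arrays, with 93.0 and 70.4. The unsuffixed F1 GCs array thus held more of the oocyte markers than F1 GCs A. Of the markers of other cell types, 5 of 13 for theca and stroma, 2 of 7 for blood and endothelium, 6 of 10 for leukocytes and 8 of 11 for epithelium and oviduct were at background on all 4 arrays, among them CYP17A1 and CYP19A1 of the theca, VWF and CDH5 of endothelium, PTPRC and CD3E of leukocytes, and OVAL of the oviduct. Of the theca and stroma markers 5 and 4 exceeded background in F1 GDR and 6 and 8 in F1 GCs, and of the blood and endothelium markers 2 and 4 did in F1 GDR and 2 and 3 in F1 GCs. The summed levels of the 13 theca and stroma markers were 134 and 209 in F1 GDR and 135 and 148 in F1 GCs, and those of the 7 blood and endothelium markers were 52.5 and 109 and 51.3 and 63.8. HBA1, a hemoglobin chain of red cells, stood at 5.76 on F1 GDR A and at 2.30 to 2.32 on the others. None of the markers of theca, blood, leukocytes or oviduct was called different between the groups. Of all genes, 4.34% were called higher in F1 GDR and 3.34% higher in F1 GCs. Leukocyte markers summed to 444 and 346 in F1 GDR and to 1020 and 653 in F1 GCs, and markers of epithelium and oviduct to 330 and 328 and to 721 and 698.

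Differences between the groups were tested with limma over all 6 arrays, and a probe set was called where the Benjamini-Hochberg adjusted p over the 38439 probe sets was under 0.05. By this rule F1 GDR had the higher level for 809 probe sets and F1 GCs for 1187, which is 2.1% and 3.09% of those tested and 5.19% in either direction. The probe sets with a single gene symbol among them stood for 620 and 719 genes. The median size of the log2 difference was 2.53 among those higher in F1 GDR and 1.95 among those higher in F1 GCs. A further 33 probe sets had a log2 difference of 4 or more and were not called, with a median SD of 1.85 between their F1 GCs arrays, against 0.80 for the 119 called ones of that size. With the hybridization controls set equal, 1175 probe sets favored F1 GDR and 23857 favored F1 GCs, and the share of calls that were higher in F1 GDR went from 40.5% to 4.69%, with 649 of the 809 calls kept. In that fit the spread was largely shared over probe sets (25.6 prior degrees of freedom against 1.66), so its counts and p-values are not on a par with the others. Leaving out an F1 array leaves a group of 1 array, which is then assumed to vary like the other groups. Without the unsuffixed F1 GDR array 19 favored F1 GDR and 0 favored F1 GCs (limma; 3059 had an unadjusted p under 0.05), and without F1 GDR A 4 and 0 (2883 with an unadjusted p under 0.05). Without the unsuffixed F1 GCs array 67 and 337 were called, and without F1 GCs A 0 (1545 with an unadjusted p under 0.05) and 24. Without an Ov GDR array, which does not enter the differences but only their error, 1531 and 1792 were called (unsuffixed array left out) or 1525 and 1777 (A left out).

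**Figure D1:**
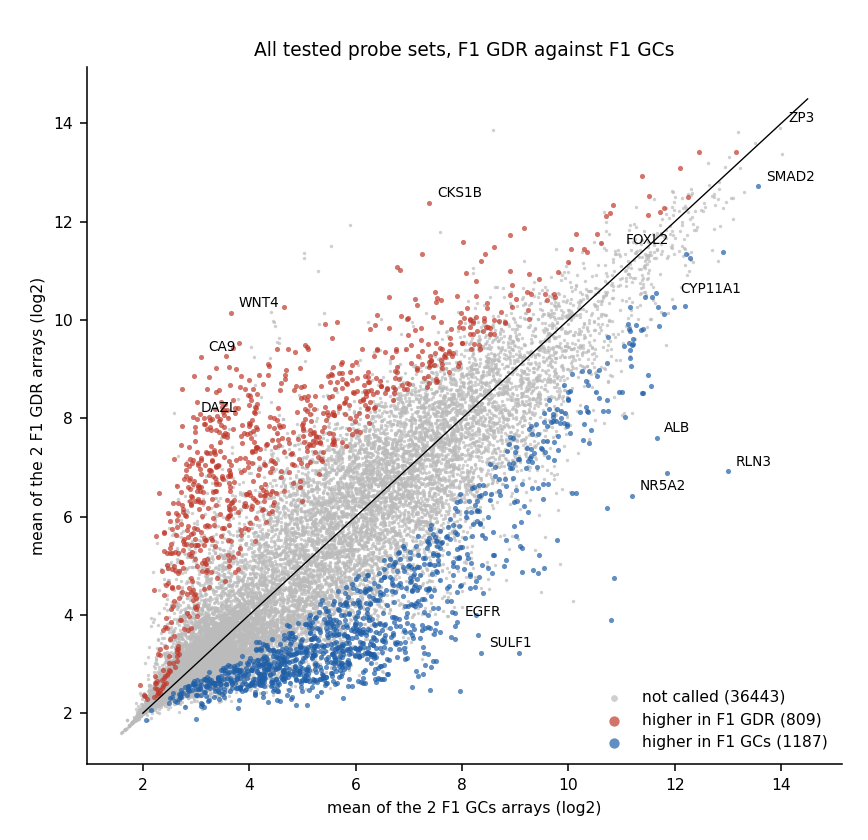
Mean log2 values of all 38439 probe sets on the 2 F1 GCs arrays (horizontal axis) and the 2 F1 GDR arrays (vertical axis), with the 809 called higher in F1 GDR in red, the 1187 called higher in F1 GCs in blue, the others in grey and the line of equal values in black. Called probe sets higher in F1 GDR often lie near the low end of the F1 GCs axis, as WNT4 and CA9 do, and RLN3 lies far to the right of the line.

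Transcripts known from oocytes were among those higher in F1 GDR, although most of the list of oocyte and germ line genes was low in both groups. Of 54 genes measured by their brightest probe set 7 were higher in F1 GDR and 0 in F1 GCs, where 4.34% and 3.34% of all genes were called in these directions. The median log2 difference of the list was 0.08, against 0.03 over all 13009 genes, and 20 of its members were at background on all 4 arrays. DAZL, which binds mRNA in germ cells, had values of 8.19 and 7.86 in F1 GDR and 3.46 and 2.42 in F1 GCs, and BTG4, which directs the removal of maternal mRNA in mouse oocytes, had 7.71 and 8.46 against 3.61 and 2.53. The groups lay far apart for both genes, and for both the unsuffixed F1 GCs array was above background and F1 GCs A was not. DAZL had a 33.9-fold excess in F1 GDR (log2 difference 5.08, SE 0.62, limma adjusted p = 0.0307; 48.5-fold without the unsuffixed F1 GCs array and 23.7-fold without F1 GCs A). BTG4 was 32.3-fold higher (log2 difference 5.01, SE 0.53, adjusted p = 0.0271), with 47.1-fold and 22.2-fold in the same order. As F1 GCs A was at background, the folds over both F1 GCs arrays and those without the unsuffixed F1 GCs array are not exact.

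MOS, the kinase that holds the mature egg in metaphase of the second meiotic division, had 5.68 and 5.54 in F1 GDR and 2.25 on each F1 GCs array, which is at background, so that it was at least 7.17-fold higher (adjusted p = 0.0372). ZAR1L, a homolog of the maternal effect factor ZAR1, had 5.30 and 6.07 against 2.37 and 2.41 and was at least 7.54-fold higher (adjusted p = 0.045). LHX8, a transcription factor of early oocytes in the mouse, had 5.18 and 5.67 against 3.12 and 3.17 (4.85-fold, adjusted p = 0.0315). These 3 transcripts were therefore at or close to background in granulosa cells and moderate in the disc. The remaining called members were TDRD5, a protein of the germ line RNA granules in mice, at 4.68 and 4.47 against 2.66 and 2.67 (at least 3.49-fold, adjusted p = 0.027), and NOBOX, another transcription factor of oocytes, at 3.61 and 3.78 against 2.83 and 2.87 (1.80-fold, adjusted p = 0.0307 and 0.382 with the hybridization controls set equal). Both were at background on the 2 Ov GDR arrays. LHX8, TDRD5 and NOBOX were chosen after their values were seen. DDX4, the vasa helicase of germ cells, had 2.52 and 2.54 against 2.50 and 2.52, and BMP15, a growth factor of oocytes, had 2.53 and 2.65 against 2.50 and 2.39, all at background. The paper's real time PCR found both mainly in GDR, so these array values do not show that the transcripts are absent. GDF9, another growth factor of oocytes, had 2.92 and 2.89 against 2.82 and 2.81 and was not called (adjusted p = 0.743).

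Of 6 genes of the egg coat 1 was called, higher in F1 GDR (16.7%, against 4.34% of all genes). ZP2, an egg coat protein, had 6.99 and 7.08 in F1 GDR and 3.85 and 2.96 in F1 GCs, a 12.4-fold difference (log2 difference 3.63, SE 0.42, adjusted p = 0.0291). ZP3, the egg coat protein that granulosa cells make in birds, had 13.96 and 13.87 against 13.99 on each F1 GCs array, at the top of the scale, where differences are compressed (log2 difference -0.07, adjusted p = 0.958). Of these 2 egg coat genes, ZP2 was higher in the disc region and ZP3 was near the top of the scale in both groups.

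**Figure D2:**
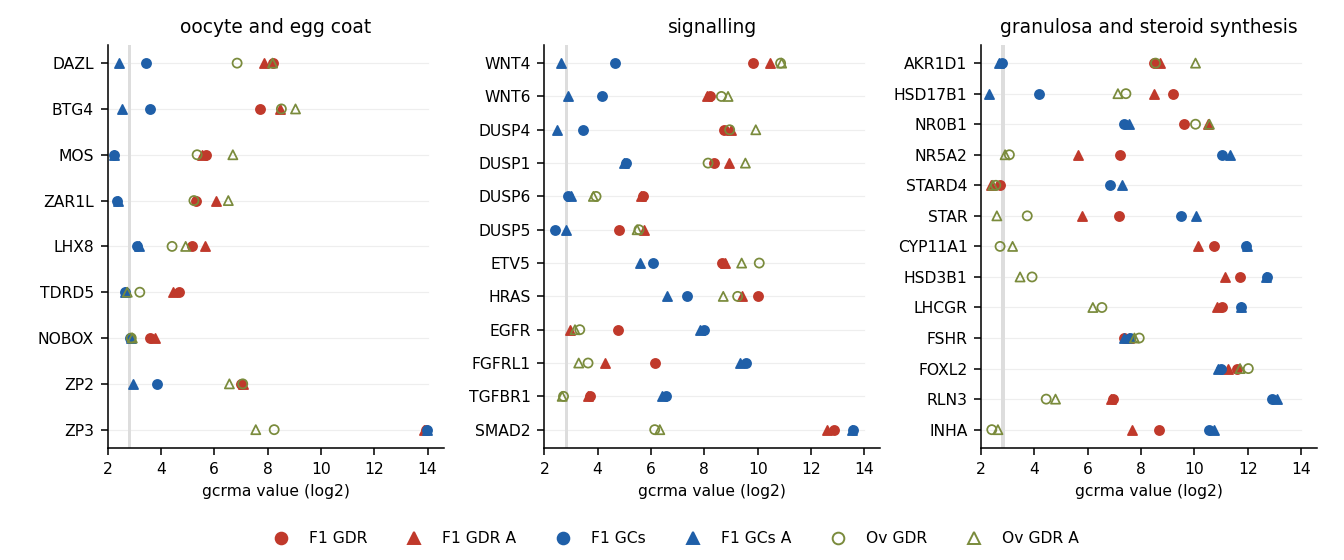
gcrma log2 values on each array of genes of the oocyte and egg coat (left), of signalling (middle) and of granulosa cells and steroid synthesis (right), with F1 GDR in red, F1 GCs in blue and Ov GDR as open green symbols, circles for unsuffixed arrays and triangles for the arrays A. The grey band spans the background of the 4 F1 arrays; MOS and ZAR1L lie left of it in F1 GCs, whereas CYP11A1, HSD3B1, LHCGR and FOXL2 lie above 10 in both F1 groups.

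Of the 24 gene lists, that of cell division held the most genes higher in F1 GDR. Of 91 genes of mitotic entry, the spindle and chromosome segregation, 43 were higher in F1 GDR and 1 in F1 GCs, against 4.34% and 3.34% over all genes, and the median log2 difference of the list was 3.18. The list's difference was above 0 for 85 of the 91 genes. Over the 43 called genes the median value was 8.10 and 8.35 in F1 GDR and 4.6 and 3.41 in F1 GCs, and the folds ran from 5.27 to 53.5 with a median of 16.9. The unsuffixed F1 GCs array stood above F1 GCs A for 42 of the 43. This order held for 79.2% of the 809 probe sets called higher in F1 GDR and for 39.7% of all probe sets. Of the 43 genes, 14 were at background on F1 GCs A. Oocyte markers had the same order on these arrays, and its source was not tested. Leaving out an F1 GCs array moved the fold of 19 of the 43 genes by more than 1.5 times, and leaving out an F1 GDR array moved it for 0 of them.

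KNSTRN, a protein of kinetochores and the spindle, had values of 9.31 and 9.56 in F1 GDR and 4.70 and 2.68 in F1 GCs and was 53.5-fold higher (log2 difference 5.74, SE 0.73, adjusted p = 0.0318). NCAPG, a subunit of the condensin complex that compacts chromosomes, had 9.49 and 9.57 against 5.00 and 2.63 (52.6-fold, adjusted p = 0.0398). In both the spread lay in F1 GCs, and the folds without F1 GCs A were 26.6 and 23.1 and without the unsuffixed F1 GCs array 108 and 120. CKS2 and CKS1B, small subunits of cyclin-dependent kinases, differed in level. CKS2 had 8.78 and 9.21 against 4.68 and 2.82 (37.9-fold; 72.1 without the unsuffixed F1 GCs array and 20.0 without F1 GCs A), whereas CKS1B had 12.39 and 12.36 against 8.13 and 6.64 (31.8-fold, adjusted p = 0.027; 53.4 and 19.0 in the same order). CKS1B was therefore well above background in granulosa cells too. NEK2, a kinase that separates centrosomes, had 8.33 and 8.82 against 4.44 and 2.43 (35.2-fold, adjusted p = 0.0389; 70.8 and 17.5 in that order). KNSTRN was called on 2 of its 4 probe sets, and NCAPG and NEK2 each on 1 of 2.

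Regulators of successive steps of division were also higher in F1 GDR. The following were chosen for their roles after their values were seen. PLK1, a kinase of mitotic entry, had 9.14 and 9.67 in F1 GDR and 5.49 and 3.98 in F1 GCs (25.5-fold, adjusted p = 0.0315; 43.0 without the unsuffixed F1 GCs array and 15.1 without F1 GCs A). MASTL, which keeps phosphatase 2A off during mitosis and meiosis, had 7.83 and 8.23 against 3.94 and 2.55 (27.5-fold, adjusted p = 0.0285; 44.5 and 17.0). CCNA2, a cyclin of the S and G2 phases, had 8.35 and 8.82 against 4.94 and 4.20 (16.2-fold, adjusted p = 0.0311). The spindle checkpoint was represented by MAD2L1, at 10.86 and 11.31 against 7.35 and 6.2 (19.8-fold, adjusted p = 0.0315; 13.3 without F1 GCs A), and by BUB1B, at 9.22 and 9.50 against 6.71 and 6.82 (6.05-fold, adjusted p = 0.026). CDC20, an activator of the ligase that ends metaphase, had 10.42 and 10.70 against 7.76 and 7.23 (8.36-fold, adjusted p = 0.0338). MKI67, a marker of cycling cells in many tissues, had 7.70 and 7.61 against 4.25 and 2.77 (17.7-fold, adjusted p = 0.0374; 29.6 and 10.6 without the unsuffixed F1 GCs array and F1 GCs A). In none of these genes did an F1 GDR array reach down to an F1 GCs array. This held for all 809 probe sets called higher in F1 GDR, so it adds nothing to the calls. The exception in the list was WEE1, a kinase that delays mitotic entry, at 6.79 and 6.86 in F1 GDR and 8.65 and 8.61 in F1 GCs, a log2 difference of -1.80 (SE 0.25, adjusted p = 0.0363), and it was at 2.61 and 2.51 in Ov GDR. The paper's real time PCR found a transcript it calls wee, described as similar to Wee1A kinase, mainly in GDR. Whether this probe set measures that transcript was not tested.

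Genes of DNA replication followed. Of 63 genes of replication and nucleotide supply 23 were higher in F1 GDR and 0 in F1 GCs. These are 36.5% and 0%, against 4.34% and 3.34% of all genes, and the median log2 difference was 2.14. MCM5, a subunit of the replicative helicase, had 9.43 and 8.69 in F1 GDR and 4.86 and 3.86 in F1 GCs (25.9-fold, adjusted p = 0.0451), and MCM2, another subunit, had 8.58 and 8.81 against 5.03 and 3.47 (21.7-fold, adjusted p = 0.0317; 37.4 without the unsuffixed F1 GCs array and 12.7 without F1 GCs A). CDT1, which loads this helicase, had 9.01 and 8.75 against 5.25 and 3.46 (23.1-fold, adjusted p = 0.0371; 42.9 and 12.4). TICRR, which starts the forks, had 8.54 and 8.35 against 4.41 and 3.60 (21.7-fold, adjusted p = 0.0238). These 4 genes were above background on every F1 array. Chosen after their values were seen, GMNN, the inhibitor of CDT1, had 11.13 and 11.56 against 7.78 and 6.72 (17.1-fold, adjusted p = 0.0285), TYMS, which makes thymidylate, had 9.84 and 9.97 against 6.76 and 5.98 (11.5-fold, adjusted p = 0.0359), and E2F1, a transcription factor of S phase genes, had 8.16 and 8.69 against 5.54 and 4.52 (10.5-fold, adjusted p = 0.0395). The loader of the helicase and its inhibitor were thus higher together.

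Of 68 genes of DNA repair 13 were higher in F1 GDR and 0 in F1 GCs (19.1% and 0%, against 4.34% and 3.34% of all genes). The median log2 difference was 1.04. EXO1, an exonuclease of mismatch repair and meiotic recombination, had 7.56 and 8 in F1 GDR and 3.36 and 3.04 in F1 GCs (23.9-fold, log2 difference 4.58, SE 0.46, adjusted p = 0.026). BARD1, the partner of BRCA1, had 6.80 and 7.26 against 3.43 and 2.32 (17.9-fold, adjusted p = 0.0307), BLM, a helicase, had 8.36 and 8.08 against 4.76 and 4.32 (12.8-fold, adjusted p = 0.0232), and RAD52, of recombination, had 6.29 and 6.49 against 3.53 and 2.31 (11.1-fold, adjusted p = 0.0377; 17.0 without the unsuffixed F1 GCs array and 7.29 without F1 GCs A). Most of the list was not called, with 55 of the 68 genes short of the threshold.

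**Figure D3:**
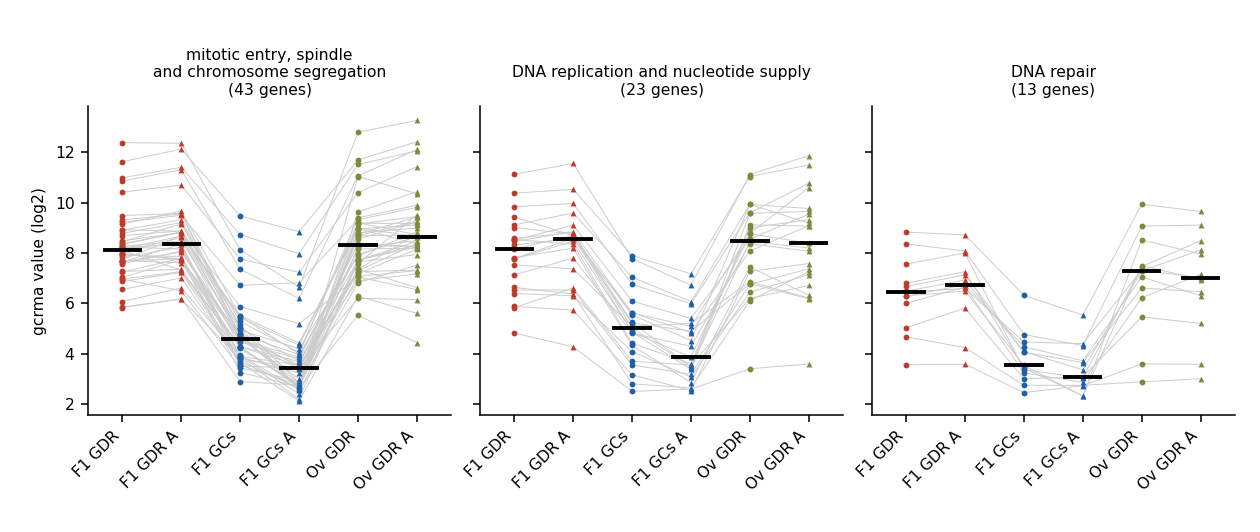
gcrma log2 values on the 6 arrays of the genes called higher in F1 GDR in 3 lists, mitosis (43 genes), DNA replication (23 genes) and DNA repair (13 genes), with a grey line per gene and a black bar at the median on each array. In each list the median on the unsuffixed F1 GCs array (4.6 for mitosis) lies above that on F1 GCs A (3.41), and the Ov GDR medians (8.33 and 8.65 for mitosis) lie near those of F1 GDR (8.10 and 8.35).

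The levels of the division genes in ovulated discs, where granulosa cells are absent, can be set beside those in F1 GDR. All of the 43 called genes of mitosis and all of the 23 of replication were above background on both Ov GDR arrays, as were 12 of the 13 of repair. Over all probe sets, 36.6% and 44.0% exceeded background on these arrays. The Ov GDR mean was at or above the F1 GDR mean for 33 of the 43, 17 of the 23 and 10 of the 13. This held for 57.8% of the 809 probe sets called higher in F1 GDR, and no share over all probe sets is given. Hybridization controls stood at 11.34 and 11.27 in Ov GDR and at 10.53 and 10.50 in F1 GDR, so these counts may move with the scaling, which was not tested. The Ov GDR arrays enter the error of the test, so these levels are given as a description.

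Of 79 measured genes of chromatin and DNA methylation 9 were higher in F1 GDR and 4 in F1 GCs (11.4% and 5.06%, against 4.34% and 3.34% of all genes), with a median log2 difference of 0.18. The histone chaperones were among the former: CHAF1B, a subunit of chromatin assembly factor 1, had 6.97 and 7.70 in F1 GDR and 4.43 and 3.69 in F1 GCs (9.70-fold, adjusted p = 0.0323), and NASP, which binds histone H1 and H3, had 10.73 and 10.87 against 8.40 and 8.12 (5.82-fold, adjusted p = 0.027). EZH2, the methyltransferase of histone H3 lysine 27, had 7.89 and 7.71 against 5.45 and 4.57 (6.93-fold, adjusted p = 0.04), and PRMT5, an arginine methyltransferase, had 7.88 and 7.37 against 5.52 and 4.98 (5.19-fold, adjusted p = 0.0489). PRMT5 had 4.92 and 4.30 in Ov GDR, below its level in F1 GDR. Higher in F1 GCs were TET2, which oxidizes 5-methylcytosine, with 6.93 and 7.30 against 9.30 and 9.35 (4.61-fold, adjusted p = 0.0365), SUV39H2, a methyltransferase of histone H3 lysine 9, with 3.83 and 3.97 against 5.56 and 5.72 (3.34-fold, adjusted p = 0.033), MBD3, of a corepressor complex (3.22-fold, adjusted p = 0.039), and ATRX, a remodeller of heterochromatin (2.78-fold, adjusted p = 0.0479). For TET2 3 of 5 probe sets were called in this direction, and for ATRX 1 of 7.

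Of the secreted signals, WNT4 had the largest difference of any gene in favor of F1 GDR. WNT4, a WNT ligand needed for ovarian development in mammals, had 9.82 and 10.46 in F1 GDR and 4.66 and 2.64 in F1 GCs, and 10.86 and 10.90 in Ov GDR. WNT6, a second ligand of the family, had 8.23 and 8.11 in F1 GDR, 4.15 and 2.88 in F1 GCs, and 8.64 and 8.89 in Ov GDR. Both ligands were therefore high in the discs of either stage and low in granulosa cells. WNT4 was 89.7-fold higher (log2 difference 6.49, SE 0.72, adjusted p = 0.0284) and WNT6 25.1-fold higher (log2 difference 4.65, SE 0.49, adjusted p = 0.0272) than in F1 GCs, with 181 and 39.0 without the unsuffixed F1 GCs array and 44.6 and 16.2 without F1 GCs A. WNT4 was at background on F1 GCs A, so its 89.7-fold is not exact. The other 58 genes of the WNT list held a single call, DKK3, a secreted protein of the Dickkopf family. It had 10.13 and 10.11 in F1 GDR and 11.68 and 11.93 in F1 GCs (3.21-fold in favor of F1 GCs, adjusted p = 0.0293). Calls higher in F1 GDR and in F1 GCs were 3.33% and 1.67% of the list, against 4.34% and 3.34% of all genes. The median log2 difference of the list was 0.06.

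In the list of epidermal growth factor and ERK kinase signalling the receptor EGFR had 4.75 and 2.97 in F1 GDR and 7.97 and 7.83 in F1 GCs, a log2 difference of -4.04 (SE 0.62, adjusted p = 0.0424), with 3 of its 4 probe sets called in this direction. It was 16.4-fold higher in F1 GCs, 30.4-fold without the unsuffixed F1 GDR array and 8.87-fold without F1 GDR A, and was not called with the 4 F1 arrays only (adjusted p = 0.0544). FGFRL1, a receptor that binds fibroblast growth factors without a kinase domain, had 6.15 and 4.28 against 9.56 and 9.34 (18.8-fold in favor of F1 GCs, adjusted p = 0.0444; 36.0 and 9.86 in the same order; adjusted p = 0.0543 with the 4 F1 arrays only). The unsuffixed F1 GDR array was the higher one for both receptors. EGF, the ligand, was at background on all 4 arrays, with 2.51 on each F1 GDR array and 2.50 and 2.54 in F1 GCs. It has 1 probe set, and these values do not show that the transcript is absent. The paper cites earlier work that found the protein in the germinal disc of F2 follicles.

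Of the phosphatases that dephosphorylate MAP kinases, DUSP1, DUSP4, DUSP5 and DUSP6 were higher in F1 GDR and DUSP7, DUSP8, DUSP10, DUSP14 and DUSP16 were not called. DUSP4 had 8.73 and 9.01 in F1 GDR and 3.44 and 2.46 in F1 GCs on its probe set of largest difference (60.4-fold, log2 difference 5.92, SE 0.52, adjusted p = 0.0242), and 2 of its 3 probe sets were called. Its brightest probe set had 9.47 and 8.51 against 5.56 and 3.83 (19.7-fold, adjusted p = 0.0451 and 0.0575 with the 4 F1 arrays only). DUSP1 had 8.38 and 8.94 against 5.07 and 4.99 (12.4-fold, adjusted p = 0.0402), DUSP6 had 5.69 and 5.63 against 2.88 and 3.01 (6.57-fold, log2 difference 2.72, SE 0.17, adjusted p = 0.0192), and DUSP5 had 4.81 and 5.73 against 2.41 and 2.80 (6.36-fold, adjusted p = 0.036). DUSP6 had 3.94 and 3.84 in Ov GDR, so that its value was highest in F1 GDR. DUSP5, DUSP6 and MAPK14 were chosen after their values were seen. ETV5, a transcription factor that ERK signals induce in many tissues, had 8.65 and 8.76 against 6.09 and 5.58 (7.32-fold, adjusted p = 0.0305), with 3 of 5 probe sets called. HRAS, a GTPase upstream of ERK, had 10.00 and 9.41 against 7.36 and 6.6 (6.62-fold, adjusted p = 0.0397), and MAPK14, the p38 kinase, had 8.61 and 8.66 against 7.36 and 7.31 (2.46-fold, adjusted p = 0.045 and 0.215 with the hybridization controls set equal). In all, 7 of the 56 genes of the list were higher in F1 GDR and 2 in F1 GCs. These are 12.5% and 3.57%, against 4.34% and 3.34% of all genes, and the median log2 difference was 0.10.

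Of 49 genes of the TGF-beta family and its signalling 3 were called in each direction (6.12%, against 4.34% and 3.34% of all genes). TGFBR1, the type I receptor of TGF-beta, had 3.73 and 3.64 in F1 GDR and 6.55 and 6.43 in F1 GCs (7.01-fold higher in F1 GCs, log2 difference -2.81, SE 0.17, adjusted p = 0.0192). SMAD2, which the receptor phosphorylates, had 12.85 and 12.59 against 13.59 and 13.54 (1.80-fold in favor of F1 GCs, adjusted p = 0.0411), and LTBP2, a protein related to the carriers of latent TGF-beta, was at background in F1 GDR with 2.39 and 2.28 against 3.83 and 4.68 (at least 2.64-fold, adjusted p = 0.0425 and 0.055 with the 4 F1 arrays only). A receptor and a mediator were thus both lower in the disc region. SMAD2 lay near the top of the scale, where differences are compressed, so the sizes of these differences are not compared. On the other side stood TGIF1, a corepressor of SMAD proteins, with 6.31 and 6.11 against 3.93 and 3.87 (4.95-fold higher in F1 GDR, adjusted p = 0.0479), ID4, an inhibitor of helix-loop-helix factors, with 6.35 and 6.34 against 4.20 and 4.03 (4.70-fold, adjusted p = 0.0284), and BMP6, a ligand, with 3.41 and 3.29 against 2.48 and 2.38 (at least 1.5-fold, adjusted p = 0.0359 and 0.302 with the hybridization controls set equal). FST, which binds activin, had 6.19 and 6.40 against 3.34 and 2.80 (9.36-fold higher in F1 GDR, adjusted p = 0.033), and both of its probe sets were called.

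Most genes of differentiated granulosa cells were not called, and among the called ones hormones, a binding protein and a peptide receptor were higher in F1 GCs. Of 61 genes of granulosa differentiation and gonadotropin response 7 were higher in F1 GCs and 1, FST, in F1 GDR. These are 11.5% and 1.64%, against 3.34% and 4.34% of all genes, and the median log2 difference was -0.01. RLN3, a relaxin hormone, had 6.96 and 6.88 in F1 GDR and 12.91 and 13.09 in F1 GCs, and the arrays of each group lay within 0.2 of each other. It was 67.6-fold higher in F1 GCs (log2 difference -6.08, SE 0.24, adjusted p = 0.0189). INHA, the alpha subunit of inhibin, had 8.66 and 7.65 against 10.56 and 10.74 (5.63-fold, adjusted p = 0.0497; 3.96 without F1 GDR A), and 1 of its 2 probe sets was called. IGFBP2, which binds insulin-like growth factors, had 5.69 and 5.91 against 9.36 and 8.59 (9.01-fold, adjusted p = 0.0315), and VIPR2, a receptor of vasoactive intestinal peptide, had 3.29 and 3.12 against 5.83 and 5.70 (5.89-fold, log2 difference -2.56, SE 0.16, adjusted p = 0.0192).

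The receptors of gonadotropins were not called. LHCGR, the receptor of luteinizing hormone, had 11.02 and 10.85 in F1 GDR and 11.73 on each F1 GCs array (log2 difference -0.80, SE 0.17, adjusted p = 0.0844), which is not past the threshold. With the 4 F1 arrays only, so that Ov GDR does not enter the error, it passed (adjusted p = 0.03). FSHR, the receptor of follicle stimulating hormone, had 7.36 and 7.55 against 7.59 and 7.35 (log2 difference -0.01, SE 0.26, adjusted p = 0.996), and its difference was 0.08 without the unsuffixed F1 GDR array and 0.11 without the unsuffixed F1 GCs array. FOXL2, a transcription factor of granulosa cells, had 11.59 and 11.24 against 11 and 10.87 (log2 difference 0.48, adjusted p = 0.23, and -0.10 with the hybridization controls set equal), and AMH, a hormone of small follicles, had 7.14 and 5.50 against 5.50 and 5.48 on its brightest probe set (adjusted p = 0.742), while another of its 4 probe sets was called higher in F1 GDR. With 2 arrays a group, these tests do not show that the levels were equal. In Ov GDR, which has no granulosa layer, the same probe sets had 12.02 and 11.71 for FOXL2, 7.93 and 7.75 for FSHR, 6.17 and 7.70 for AMH and 6.53 and 6.19 for LHCGR. As deposited, the values of FOXL2, FSHR and AMH were higher there than in F1 GCs, and those of LHCGR were lower. Hybridization controls stood at 11.34 and 11.27 on the Ov GDR arrays, against 9.75 and 10.11 in F1 GCs. With these controls set equal, the order of FOXL2, FSHR and AMH may differ, and Ov GDR was not tested against F1 GCs. The part of the disc in their F1 GDR levels was not tested.

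Steroid synthesis contained called genes of opposite direction. Of 33 genes 4 were higher in F1 GDR and 2 in F1 GCs (12.1% and 6.06%, against 4.34% and 3.34% of all genes). The median log2 difference was 0.00. AKR1D1, a reductase that acts on progesterone and other steroids, had 8.49 and 8.71 in F1 GDR and 2.78 and 2.67 in F1 GCs (log2 difference 5.87, SE 0.56, adjusted p = 0.0251). Its F1 GCs values were at background on F1 GCs A and barely above it on the other array, so no fold is given. HSD17B1, which makes estradiol from estrone, had 9.20 and 8.47 against 4.18 and 2.29 (48.5-fold, adjusted p = 0.0321; 93.4 without the unsuffixed F1 GCs array and 25.2 without F1 GCs A). NR0B1, a repressor of steroidogenic genes, had 9.6 and 10.51 against 7.36 and 7.54 (6.09-fold, adjusted p = 0.0377), and TSPO, a protein of the outer mitochondrial membrane, had 8.35 and 8.94 against 6.83 and 6.57 (3.86-fold, adjusted p = 0.042). These 4 genes were also above background on both Ov GDR arrays.

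NR5A2, a nuclear receptor that activates steroidogenic genes, had 7.21 and 5.64 in F1 GDR and 11.04 and 11.34 in F1 GCs, a 27.2-fold difference in favor of F1 GCs (log2 difference -4.77, SE 0.58, adjusted p = 0.031; 46.9 without the unsuffixed F1 GDR array and 15.8 without F1 GDR A). The activator and the repressor NR0B1 were therefore called in opposite directions. STARD4, which carries cholesterol within the cell, had 2.71 and 2.37 against 6.84 and 7.27 on its probe set of largest difference, at least 18.4-fold higher in F1 GCs (adjusted p = 0.0189). On its brightest probe set it was above background in F1 GDR, with 5.87 and 5.9 against 9.15 and 9.07 (9.36-fold, adjusted p = 0.026). Of 3 genes of progesterone synthesis itself, the enzymes CYP11A1 and HSD3B1 were high in both groups. CYP11A1, the side chain cleavage enzyme, had 10.73 and 10.13 against 11.94 and 11.97 (log2 difference -1.52, SE 0.31, adjusted p = 0.0733), HSD3B1, which forms progesterone, had 11.71 and 11.13 against 12.72 and 12.67 (log2 difference -1.28, SE 0.28, adjusted p = 0.0855), and STAR, which brings cholesterol into mitochondria, had 7.17 and 5.80 against 9.49 and 10.04 (log2 difference -3.28, SE 0.66, adjusted p = 0.07). All 3 missed the threshold, CYP11A1 passed with the 4 F1 arrays only (adjusted p = 0.0445), and the lower F1 GDR value was in each case that of F1 GDR A.

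Of 21 genes of cholesterol synthesis 2 were called in favor of F1 GCs and 0 in favor of F1 GDR. These are 9.52% and 0%, against 3.34% and 4.34% of all genes. The median log2 difference was -0.41, and 18 of the 21 had a difference that was not above 0. SQLE, squalene epoxidase, had 8.43 and 8.65 in F1 GDR and 10.87 and 11.06 in F1 GCs (5.35-fold, log2 difference -2.42, SE 0.21, adjusted p = 0.0242), and both of its probe sets were called. LSS, lanosterol synthase, had 8.53 and 8.59 against 9.95 and 10.11 (2.78-fold, adjusted p = 0.0451).

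**Figure D4:**
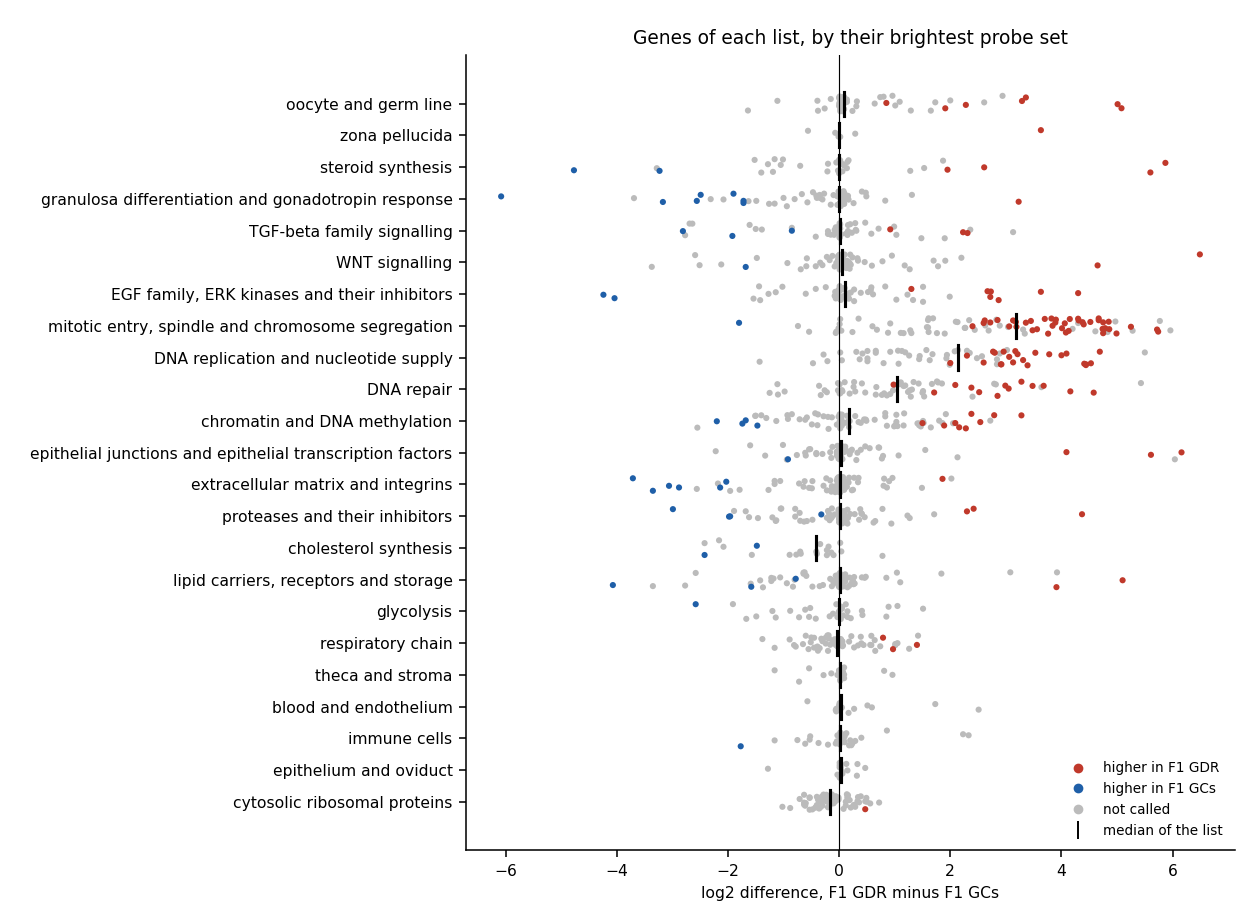
log2 difference of F1 GDR minus F1 GCs for each gene of 23 lists by its brightest probe set, with genes called higher in F1 GDR in red, those called higher in F1 GCs in blue, the others in grey and the median of each list as a black bar. The medians of the mitosis list (3.18), the replication list (2.14) and the repair list (1.04) lie right of 0, and that of cholesterol synthesis (-0.41) lies left of it.

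Junction and surface genes were marked by a few large differences. Of 61 genes of epithelial junctions and epithelial transcription factors 3 were higher in F1 GDR and 1 in F1 GCs. These are 4.92% and 1.64%, against 4.34% and 3.34% of all genes, and the median log2 difference was 0.03. CA9, a carbonic anhydrase of the cell surface, had 9.06 and 9.44 in F1 GDR and 3.87 and 2.31 in F1 GCs (71.6-fold, log2 difference 6.16, SE 0.60, adjusted p = 0.0253; 123 without the unsuffixed F1 GCs array and 41.8 without F1 GCs A). CLDN1, a claudin of tight junctions, had 10.16 and 10.38 against 5.88 and 3.44 (48.7-fold, adjusted p = 0.0399; 113 and 20.9; adjusted p = 0.0519 with the 4 F1 arrays only), and its probe set may also bind related transcripts. Both genes again had their higher F1 GCs value on the unsuffixed array. CLDN11, another claudin, had 7.32 and 7.05 against 3.22 and 2.97 (17.0-fold, log2 difference 4.09, SE 0.24, adjusted p = 0.0192) on the 1 of its 2 probe sets that was called. In Ov GDR this probe set had 3.59 and 3.28, so that it was high in F1 GDR alone of the 3 groups. EPCAM, an adhesion protein of epithelia, had 11.60 and 12.27 against 7.64 and 4.14 on its brightest probe set, a log2 difference of 6.04 that was not called (SE 1.20, adjusted p = 0.068; 7.79 without the unsuffixed F1 GCs array and 4.29 without F1 GCs A), while 1 of its 3 probe sets was called higher in F1 GDR. GJB1, a connexin, stood at 2.19 and 2.20 against 3.05 and 3.17, barely above background in F1 GCs (at least 1.20-fold, adjusted p = 0.0189).

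Of 92 genes of extracellular matrix and integrins 6 were called in favor of F1 GCs and 1 in favor of F1 GDR (6.52% and 1.09%, against 3.34% and 4.34% of all genes), with a median log2 difference of 0.01. The other 85 were not called, and 33 were at background on all 4 arrays. SULF1, which removes sulfate from heparan sulfate chains, had 3.21 and 3.25 in F1 GDR and 8.16 and 8.55 in F1 GCs on its probe set of largest difference (34.9-fold, log2 difference -5.13, SE 0.23, adjusted p = 0.0189), and 2 of its 7 probe sets were called. Basement membrane genes were among the called ones. LAMA2, a laminin chain, had 5.01 and 5.04 against 8.17 and 8.59 on the 1 of its 5 probe sets that was called (10.2-fold, adjusted p = 0.0416), COL4A3, a collagen chain, had 3.23 and 3.17 against 5.89 and 6.64 (8.36-fold, adjusted p = 0.0439), and LOXL1, which crosslinks elastin, had 6.97 and 6.34 against 9.25 and 9.81 (7.34-fold, adjusted p = 0.0336). NID1, a linker of laminin and collagen IV, went against them with 8.21 and 8.25 in F1 GDR and 6.40 and 6.33 in F1 GCs (3.63-fold higher in F1 GDR, adjusted p = 0.0353 and 0.0631 with the hybridization controls set equal). NID1 had 3.96 and 4.05 in Ov GDR and was called on 1 of its 4 probe sets.

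Of 79 proteases and inhibitors 3 were higher in F1 GDR and 4 in F1 GCs (3.8% and 5.06%), near the 4.34% and 3.34% of all genes, with a median log2 difference of 0.02. The plasminogen activator PLAU, urokinase, had 8.65 and 8.89 in F1 GDR and 6.49 and 6.44 in F1 GCs (4.93-fold, adjusted p = 0.0381), and SERPINE2, an inhibitor of such activators, had 7.80 and 8.40 against 4.57 and 2.88 (20.7-fold, adjusted p = 0.0472; 37.3 without the unsuffixed F1 GCs array and 11.5 without F1 GCs A). Both are single calls in a list called at a share near that of all genes, and PLAU was called on 1 of its 3 probe sets. TLL1, a metalloprotease that processes matrix and BMP antagonists, had 5.03 and 4.96 in F1 GDR and 2.75 and 2.41, at background, in F1 GCs (at least 4.68-fold, adjusted p = 0.0396). PCSK2, a convertase of prohormones, had 3.82 and 3.72 against 6.47 and 7.05 (7.94-fold higher in F1 GCs, log2 difference -2.99, SE 0.26, adjusted p = 0.0242). CTSO, a cathepsin, had a 3.96-fold excess in F1 GCs (adjusted p = 0.0476), SERPINI1, a serpin, 3.90-fold (adjusted p = 0.0293), and SPINK4, an inhibitor of trypsin-like proteases, was called at 2.80 and 2.89 in F1 GCs and 2.51 and 2.54 in F1 GDR, values so near background that no fold is given.

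Fuel and lipid genes held few calls. Of 75 lipid carriers, receptors and storage genes 2 were higher in F1 GDR and 3 in F1 GCs. These are 2.67% and 4.0%, against 4.34% and 3.34% of all genes, and the median log2 difference was 0.01. FABP3, a fatty acid binding protein of muscle, had 8.32 and 7.36 in F1 GDR and 2.95 and 2.53 in F1 GCs (34.3-fold, log2 difference 5.10, SE 0.47, adjusted p = 0.0244), and FABP7, its relative of the brain, had 7.29 and 7.24 against 3.91 and 2.82 (15-fold, adjusted p = 0.0336). The 2 binding proteins shared their direction. ALB, serum albumin, had 7.69 and 7.50 against 11.43 and 11.89 (16.7-fold higher in F1 GCs, log2 difference -4.07, SE 0.29, adjusted p = 0.0192) and was at 2.80 and 2.83 in Ov GDR. PPARG, a nuclear receptor of fat cells, had a 2.98-fold excess in F1 GCs (adjusted p = 0.0299) with 2 of 3 probe sets called, and CPT1A, of fatty acid oxidation, at least 1.69-fold (adjusted p = 0.0322). VLDLR, the receptor through which the oocyte takes up yolk, had 10.95 and 10.77 against 11.21 on each F1 GCs array and was not called (log2 difference -0.35, SE 0.12, adjusted p = 0.24). PDK4, which closes the entry of pyruvate into mitochondria, was the 1 call among 33 genes of glycolysis (3.03%, against 3.34% of all genes). It had 5.10 and 5.56 against 8.11 and 7.72 (6.00-fold higher in F1 GCs, adjusted p = 0.0396). Of 60 respiratory chain genes 3 were higher in F1 GDR (5%, near the 4.34% of all genes), each a small subunit of complex I. The largest difference was that of NDUFA12, at 11.25 and 11.64 against 10.12 and 9.97 (2.65-fold, adjusted p = 0.0442).

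Outside these lists other genes had comparable differences. Among the 15 genes with the largest differences in favor of F1 GDR were UBE2U, a ubiquitin conjugating enzyme, with 8.86 and 9.20 in F1 GDR and 4.10 and 2.66 in F1 GCs (50.1-fold, adjusted p = 0.0315; 82.4 without the unsuffixed F1 GCs array and 30.4 without F1 GCs A), and AP1S3, a subunit of a clathrin adaptor, with 8.75 and 9.36 against 4.57 and 2.69 (43.0-fold, adjusted p = 0.0319; 82.6 and 22.4). RFLNB, a partner of filamin, was 41.7-fold higher (adjusted p = 0.0307; 76.4 and 22.7), and LOC424111, a gene with no assigned name, 52.7-fold (adjusted p = 0.0251; 88.7 and 31.2). RFLNB was called on 1 of 3 probe sets and LOC424111 on 1 of 2. All 15 had their higher F1 GCs value on the unsuffixed array, as had 79.2% of the 809 probe sets called higher in F1 GDR.

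Among the 15 genes with the largest differences in favor of F1 GCs, SLC12A2, the cotransporter of sodium, potassium and chloride, had 3.26 and 3.17 in F1 GDR and 8.91 and 9.21 in F1 GCs (57.5-fold, adjusted p = 0.0242), CNTN4, a contactin of the cell surface, had 4.96 and 4.88 against 9.24 and 9.43 (21.4-fold, adjusted p = 0.026), and SYT11, a synaptotagmin of vesicle traffic, had 3.92 and 3.12 against 8.02 and 7.73 (20.4-fold, adjusted p = 0.0308). All 3 had at most 4.96 in the disc region, which also holds granulosa cells. LOC426093, without a name, had the largest difference of a gene in this direction, with 6.09 and 3.42 against 10.62 and 11.09 (68.3-fold, adjusted p = 0.042; 172 without the unsuffixed F1 GDR array and 27.1 without F1 GDR A; adjusted p = 0.0529 with the 4 F1 arrays only), and all 3 of its probe sets were called. XPO1, the exporter of proteins from the nucleus, was called on 1 of 4 probe sets, at 3.13 and 2.84 against 7.45 and 7.17 (20.0-fold, adjusted p = 0.0189), so that this difference belongs to that probe set. The others were SUSD1 (26.1-fold, adjusted p = 0.0235), ZRANB1, a deubiquitinase (24.0-fold, adjusted p = 0.0339), GALC, a lysosomal galactosidase (22.3-fold, adjusted p = 0.0189), DPF3, a chromatin reader, on 1 of 2 probe sets, the other having a log2 difference of 0.71 and no call (21.6-fold, adjusted p = 0.0301; 13.7 without the unsuffixed F1 GCs array and 34.1 without F1 GCs A), CARMIL1, a regulator of actin (21.0-fold, adjusted p = 0.0253), and FAM189A2 (19.3-fold, adjusted p = 0.0443; 35.5 without the unsuffixed F1 GDR array and 10.4 without F1 GDR A; adjusted p = 0.0544 with the 4 F1 arrays only).

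**Figure D5:**
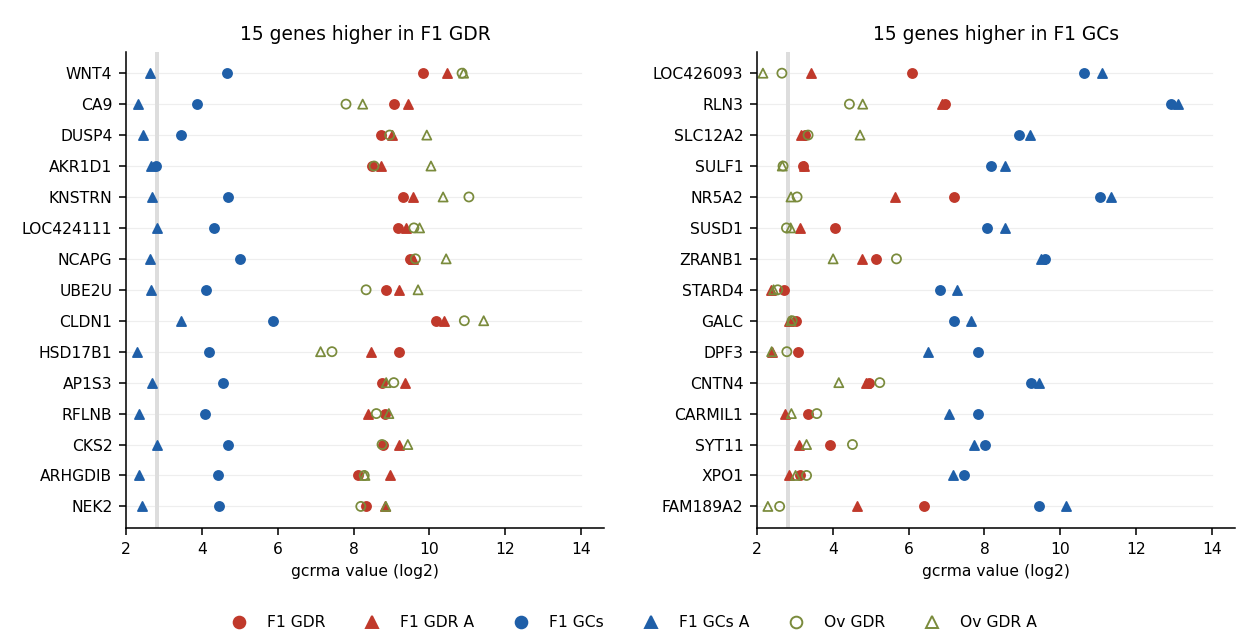
gcrma log2 values on the 6 arrays of the 15 genes with the largest called difference in favor of F1 GDR (left) and of F1 GCs (right), with F1 GDR in red, F1 GCs in blue, Ov GDR as open green symbols, triangles for the arrays A and the background of the 4 F1 arrays as a grey band. On the left the unsuffixed F1 GCs array (WNT4: 4.66) lies right of F1 GCs A (WNT4: 2.64) for every gene and Ov GDR lies among or beyond the F1 GDR values for most, and on the right Ov GDR lies below the F1 GCs values for every gene.

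Probe sets without a gene symbol made up 144 of the 809 higher in F1 GDR and 340 of the 1187 higher in F1 GCs, and 4.36% of all probe sets without a symbol were called, against 5.53% of those with one. The probe set with the largest difference of all had no symbol, with 5.10 and 2.71 in F1 GDR and 10.61 and 11.01 in F1 GCs (log2 difference -6.90, SE 0.89, adjusted p = 0.0323), while another, with 8.91 and 7.75 against 3.36 and 2.68 (log2 difference 5.31, SE 0.60, adjusted p = 0.0285), had the largest in the other direction among probe sets without a symbol. The first was 120-fold higher in F1 GCs, 274-fold without the unsuffixed F1 GDR array and 52.3-fold without F1 GDR A. The 120 and the 274 are not exact, as F1 GDR A was at background. A further one, chosen after its values were seen, was 26.9-fold higher in F1 GDR with 7.18 and 7.75 against 2.81 and 2.61 (adjusted p = 0.0189), and had 2.42 and 2.47 in Ov GDR, which is background. It shared with CLDN11 the high value in F1 GDR alone.

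The called probe sets as a whole differed in their level in Ov GDR and in the order of the F1 GCs arrays. Of the 809 higher in F1 GDR 91.8% were above background on both Ov GDR arrays, 57.8% had an Ov GDR mean at or above the F1 GDR mean, and 35 had one at or under the F1 GCs mean. Of the 1187 higher in F1 GCs 33.6% were above background on both Ov GDR arrays, and 66.3% had an Ov GDR mean at or under the F1 GDR mean. Over all probe sets, 36.6% exceeded background on the unsuffixed Ov GDR array and 44.0% on Ov GDR A. The shares for the Ov GDR means are given without a share over all probe sets. They may move with the scaling, as hybridization controls were higher on the Ov GDR arrays than on the F1 arrays. The unsuffixed F1 GCs array stood above F1 GCs A for 79.2% of the 809 probe sets (median difference 0.29) and for 39.7% of all probe sets (median -0.01). For the 1187 probe sets the unsuffixed F1 GDR array stood above F1 GDR A for 54.8% (median 0.03), against 31.5% of all.

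In several lists calls were rare or absent. Over all genes, 4.34% were called higher in F1 GDR and 3.34% higher in F1 GCs. At these shares, lists as small as 14 to 17 genes may hold 0 calls, so 0 is not read as a result about them. Of 65 cytosolic ribosomal proteins 1 was called, RPL11, with 12.27 and 12.12 in F1 GDR and 11.80 and 11.65 in F1 GCs (1.39-fold higher in F1 GDR, adjusted p = 0.0477 and 0.0586 with the 4 F1 arrays only), and their median log2 difference was -0.16. Of 17 theca and stroma genes, 14 of blood and endothelium and 16 of epithelium and oviduct 0 were called, and of 37 genes of immune cells 1 was, DMA, a class II histocompatibility protein, at 3.01 and 3.47 against 4.92 and 5.10 (3.41-fold higher in F1 GCs, adjusted p = 0.0499). The reporter genes ACTB, GAPDH and EEF1A1 had log2 differences of 0.36, 0.15 and -0.43 and were not called (adjusted p = 0.576, 0.91 and 0.75). ACTB and GAPDH turned to -0.22 and -0.43, and RPL11 to -0.11, with the hybridization controls set equal.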

How the data were processed

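Total RNA from pooled tissue was hybridized to Affymetrix chicken arrays. The authors normalized the arrays with gcrma, and the deposited table holds log2 values per probe set, F1 GDR A to 2 decimals. These were used without further scaling. Every per-sample column was used. The methods give 15 h of light where the labels give 14 h.

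The 96 AFFX controls were left out. Symbols came from the platform annotation: 27168 probe sets carry 1 symbol, 177 several and 11094 none. Of those with 1 symbol, 26853 matched RefSeq (GRCg7b) by Entrez ID and kept the same symbol. Probe sets ending in _s_at or _x_at may bind related transcripts. Of the 620 genes higher in F1 GDR 375 had several probe sets, and 37 had 2 or more called. Of the 719 higher in F1 GCs these were 554 and 100. Among the named genes, TICRR and MAPK14 were called on 1 of 4 probe sets. MASTL, EZH2, NASP, PLAU, LSS, CPT1A, NDUFA12, RPL11 and ZRANB1 were each called on 1 of 3. CLDN11, MOS, ZP2, MCM2, CDT1, CCNA2, MAD2L1, BUB1B, CHAF1B, PRMT5, SUV39H2, TSPO, PCSK2, CTSO and DUSP5 were each called on 1 of 2.

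F1 GDR minus F1 GCs was tested two-sided with limma 3.58.1 in R 4.3.3 over the 3 groups of 2 arrays (3 residual degrees of freedom, 1.66 prior, mean-variance trend), checked on simulated data. The smallest p that exact permutation of 2 and 2 arrays allows is 0.333. The methods state 2 biological pools per group. A fold against a group at background on both arrays is a lower bound over that background. Where 1 of the 2 arrays of the lower group was at background, the fold is given as computed and is not exact. In F1 GCs this is so for WNT4, CA9, DAZL, BTG4, KNSTRN, NCAPG, NEK2, HSD17B1, UBE2U, AP1S3 and RFLNB, among others. With an array left out, a fold against a lone array at background is given as computed and is not exact. Without the unsuffixed F1 GCs array this holds for DAZL, BTG4, KNSTRN, NCAPG, NEK2, MASTL, MKI67, RAD52, WNT4, HSD17B1, CA9, UBE2U, AP1S3 and RFLNB.

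Named genes are the 15 largest called differences per direction, the 4 largest of each of 24 lists per direction by the gene's brightest probe set, a fixed set of oocyte, granulosa and reporter genes, and the largest probe set without symbol. List symbols were resolved through RefSeq synonyms. Genes were grouped, and members and lists were chosen, with earlier results of these data known. Alternatives were moderation without trend, the 4 F1 arrays only, the suffix as a block, a minimum level, 2 scalings, a plain t-test, Bonferroni adjustment, a minimum difference and each array left out.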

Additional observations from a re-analysis of the deposited data

How the results depend on the processing

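With 2 pools a group, the counts of called probe sets moved with the processing. Settings that change only the error, the filter or the adjustment leave each difference as it is, so they cannot show that it is stable. The differences moved with the scaling and where an F1 array was left out. That of WNT4, 6.49, was 7.5 without the unsuffixed F1 GCs array and 5.48 without F1 GCs A. The counts higher in F1 GDR and in F1 GCs, 809 and 1187, were 1562 and 1801 with the 4 F1 arrays only, 1821 and 2182 over the 12368 probe sets with a mean of at least 4, and 1354 and 1659 with equal means of the reporter genes. Scaling to reporter genes or hybridization controls left limma with a spread shared wholly or largely over probe sets, so those counts are not comparable with the others. The plain t-test called 2 and 0 after Benjamini-Hochberg or Bonferroni adjustment (3624 and 3248 with an unadjusted p under 0.05), and limma with Bonferroni adjustment 0 and 0 (2995 and 3878 unadjusted). With equal means of the hybridization controls, an alternative chosen after seeing the data, 1175 and 23857 were called and the median difference of all probe sets went from 0.01 to -0.57. Leaving out each array in turn gave 0 to 1531 higher in F1 GDR and 0 to 1792 higher in F1 GCs. The cause was not tested.

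The labels do not say that the suffix pairs the arrays, and the deviations of like-named F1 arrays correlated at -0.145, so it was not taken as a pairing. With the suffix as a replicate block 0 and 0 were called by limma (2719 and 3612 with an unadjusted p under 0.05), and with the suffix crossed, also chosen after seeing the data, 0 and 0 (2804 and 3797).

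Differences near 0 turned in sign. With each array left out FSHR ran from -0.13 (without F1 GCs A) to 0.11 (without the unsuffixed F1 GCs array), with 0.08 without the unsuffixed F1 GDR array, and GAPDH ran from -0.10 (without the unsuffixed F1 GDR array) to 0.39 (without F1 GDR A), and with equal hybridization controls FOXL2 was -0.10, RPL11 -0.11, ACTB -0.22 and GAPDH -0.43. Signal near background and at the top of the scale limits what a difference can show.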
